A study of Mus musculus with 12 samples.

Results

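The subunits of the respiratory chain and of ATP synthase were examined in cells of the mouse oviduct (Fallopian tube), as the genes that both the nuclear and the mitochondrial genome contribute to the same protein complexes. Members were the protein-coding rows whose symbols start with Nduf followed by a subunit letter (a, b, c, s or v) and a digit, with Cox4 to Cox8, with Uqcr or with Atp5, together with every protein-coding gene of chromosome MT. The rule found 95 of the 35509 rows of the count table, of which 82 were nuclear-encoded and 13 mitochondrially encoded. The nuclear members comprised 36 genes of complex I, 8 of complex III, 21 of complex IV and 17 of complex V. Chromosome MT carried 7, 1, 3 and 2 genes of the same complexes. Ndufa4 and its paralog Ndufa4l2 were counted with complex IV, of which Ndufa4 is known to be a subunit.

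The respiratory chain passes electrons from NADH and succinate to oxygen through complexes I to IV, and complex V uses the proton gradient they build to make ATP. Complexes I, III, IV and V are mosaics: a few core subunits are transcribed inside the mitochondrion as long polycistronic RNAs, and the remaining subunits are transcribed in the nucleus and imported as proteins. In the oviduct, ciliated cells use ATP for ciliary beating, and secretory cells make the fluid that nourishes gametes and early embryos.

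The samples came from 6 mice with wild-type MADM (mosaic analysis with double markers) RG;GR alleles on a mixed background, which received no treatment and were 4 weeks old. In MADM, rare recombination between chromosomes during cell division makes a single cell and its offspring fluorescent, so that a clone can be seen and cut out. From the distal Fallopian tube of each mouse, 200 cells were pooled from large clones and 200 from small clones by laser microdissection, and poly(A)-primed cDNA was amplified and sequenced. This gave 12 libraries, 1 of each clone size from each mouse, called here L1 to L6 and S1 to S6 by mouse; each library pools cells of several clones, and all 12 carry the same alleles. The comparison asks whether the cells of large and small clones differ in expression.

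Each library held between 3057979 and 4227129 deposited expected counts, the read numbers that RSEM assigns to a gene. Levels are given as CPM, a gene's counts per 1e+06 counts of the library after TMM (trimmed mean of M-values) scaling; in that unit, 3 counts, the limit that a count of 0 allows for counting error, correspond to between 0.585 and 1.33 CPM. Reads amplified by PCR without molecular identifiers are not independent molecules, so intervals cover counting error only. A set of 5 libraries stood apart from the others by the share of counts on olfactory, vomeronasal and taste receptor genes (called chemoreceptors), which are known from sensory tissues: L1, L2, L6, S3 and S6 had 7.86% to 11.02%, against 0.841% to 4.17% in the other 7 libraries. The same 5 had low ribosomal protein shares, 1.43% to 4.10% against 9.35% to 13.46%, and high shares of processed pseudogenes, 10.2% to 14.8% against 2.34% to 6.58%. Epithelial markers (Epcam, Cdh1, Krt7, Krt8 and Krt18) summed to 242.2 to 1290 CPM in the 5 libraries and to 4082 to 8273 CPM in the 7. Ciliated cell markers summed to 104.3 to 407.5 CPM against 1051 to 5212 CPM, and secretory cell markers to 494.5 to 1158 CPM against 723.2 to 7938 CPM. The markers of smooth muscle (18.7 to 116.0 against 66.8 to 523.3 CPM), fibroblasts (15.8 to 121.1 against 37.1 to 521.1 CPM), endothelium (94.4 to 242.4 against 41.6 to 363.8 CPM), immune cells (19.1 to 261.2 against 0.444 to 28.9 CPM) and red blood cells (33.0 to 2467 against 238.4 to 5928 CPM) had ranges that overlapped, as did the secretory markers (Ovgp1, Pax8, Sox17, Wt1 and Msx2). A limit of 6%, set with these shares known, lies in the gap between 4.17% and 7.86%. The 5 libraries are split off by a measured share and are not a group of the study, so the summed results are also given within each set.

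The first point on the mitochondrial members concerns their sequences, because a nuclear copy of part of the mitochondrial genome lies on chromosome 1. In the annotation of genome build GRCm38 (GENCODE M21), the pseudogenes Gm28438 (chr1:24612775-24613119), Gm28437 (chr1:24613189-24613971), Gm10925 (chr1:24613974-24614651), Gm28661 (chr1:24614885-24615565) and Gm29216 (chr1:24615706-24616197) lie side by side on the minus strand. Their parents in the mitochondrial genome are mt-Nd3 (MT:9459-9806), mt-Co3 (MT:8607-9390), mt-Atp6 (MT:7927-8607), mt-Co2 (MT:7013-7696) and mt-Co1 (MT:5328-6872), all on the plus strand. Gm28437 was identical to mt-Co3 over 783 of the 784 bases of mt-Co3, Gm28661 to mt-Co2 over 681 bases and Gm10925 to mt-Atp6 over 678 bases. Gm29216 differed from mt-Co1 at 1 of 483 bases and Gm28438 from mt-Nd3 at 1 of 345. Gm29216 matches only bases 1063 to 1545 of the 1545 bases of mt-Co1, while the other copies named here span nearly all of their parents. The stretches below run 5′ to 3′ on the sense strand of the GENCODE transcripts. They are shown because a read inside them that does not cover a differing base has 2 or more possible origins. Capitals mark the base that differs, and the mt-Co3 pair has none. The differences are A1066T in mt-Co1 and T3C in mt-Nd3, counted from the first base of the mitochondrial transcript, with the mitochondrial base first.
mt-Co3: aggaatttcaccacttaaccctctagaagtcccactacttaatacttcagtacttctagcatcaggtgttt
Gm28437: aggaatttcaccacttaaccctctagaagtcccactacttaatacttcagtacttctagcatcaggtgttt
mt-Co1: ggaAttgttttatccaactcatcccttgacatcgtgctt
Gm29216: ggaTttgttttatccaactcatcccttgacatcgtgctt
mt-Nd3: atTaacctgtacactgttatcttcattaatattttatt
Gm28438: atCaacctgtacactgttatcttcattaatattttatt

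The counts were divided between these rows very unevenly. Over the 12 libraries, mt-Co3 received 14038 counts and Gm28437 73053, and mt-Co1 received 4920 counts and Gm29216 26417. The other pairs went the opposite way: mt-Co2 received 6074 counts and Gm28661 692, mt-Atp6 received 5581 and Gm10925 100, and mt-Nd3 received 3538 and Gm28438 948. In all, 11 pseudogenes matched 9 of the 13 mitochondrial members at 95% identity or more over 90% or more of their length, a criterion chosen after the values were seen. These copies took 41.7% to 87.7% of a library's summed counts of the copies and all 13 mitochondrial members. That sum includes the members without a copy. Whether those reads came from mitochondrial RNA, from the nuclear copy or from DNA was not tested, so the levels of the mitochondrial members are uncertain wherever a copy exists.

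**Figure D1:**
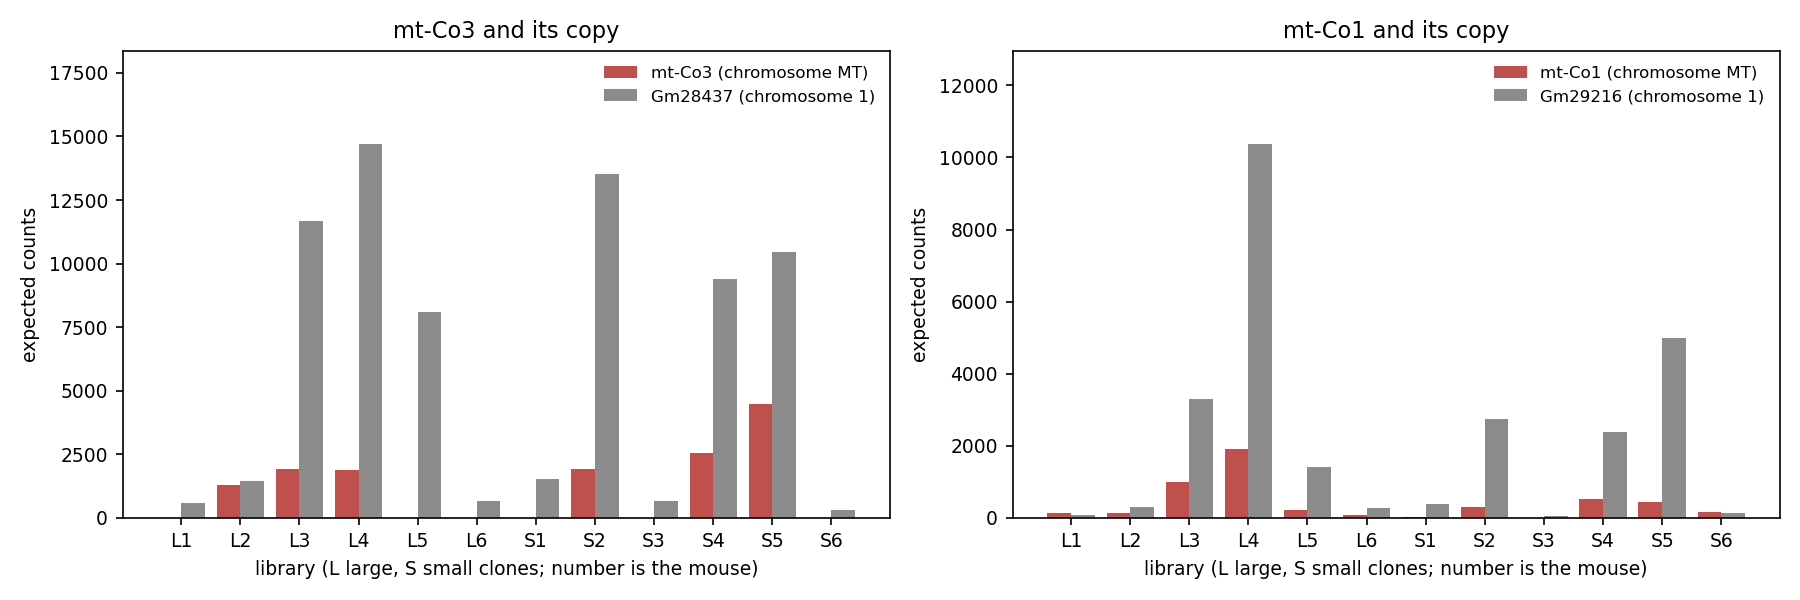
Expected counts of mt-Co3 and mt-Co1 (red bars) and of their near-identical copies on chromosome 1 (grey bars) in each of the 12 libraries; the axis is linear and starts at 0. The copy Gm28437 has more counts than mt-Co3 in every library, from 293 to 14698, and mt-Co3 is at or below 1.16 counts in 6 of them.

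The mitochondrially encoded core subunits of complex IV (cytochrome c oxidase), mt-Co1, mt-Co2 and mt-Co3, illustrate the spread. For mt-Co3 the large clone libraries had a lowest level of 0.195 CPM, a median of 153.1 and a highest of 836.4, and the small clone libraries 0, 334.0 and 1294 CPM. Libraries L1, L5, L6, S1, S3 and S6 held 0.19 to 1.16 mt-Co3 counts before rounding, while the other 6 held 1299 to 4471. The counts assigned to mt-Co3 were thus either near 0 or high in both clone classes. The copy Gm28437 held 293 (S6) to 8081 (L5) counts in the libraries low in mt-Co3, and 1468 (L2) to 14698 (L4) in the other 6. In L5 mt-Co3 had 1.16 counts. Low mt-Co3 counts therefore do not show that its RNA was absent. For mt-Co2 the large clone values ran from 0 through a median of 32.6 to 943.9 CPM. The small clone values ran from 0 through 88.9 to 425.2 CPM. In L1, L2, S1, S3 and S6 mt-Co2 had 0 counts, while its copy Gm28661 held 155, 108, 117, 46 and 36. Gm28661 also held 228 counts in S2, where mt-Co2 had 708, and at most 1.03 in any other library. A count of 0 for mt-Co2 therefore does not show that its RNA was absent. For mt-Co1 the values ran from 15.0 through 44.8 to 844.9 CPM in large clones and from 0.992 through 68.0 to 175.9 CPM in small clones, and the classes overlapped.

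The 7 mitochondrial subunits of complex I form its membrane arm. Per kilobase of transcript, averaged over the 12 libraries, mt-Nd3 was highest at 300.0 CPM, followed by mt-Nd1 at 152.6, mt-Nd2 at 68.4, mt-Nd6 at 38.3, mt-Nd4 at 19.4 and mt-Nd5 at 7.64 CPM. Libraries varied widely around these means: mt-Nd1, before division by length, ran from 4.41 to 578.8 CPM. On the same per-kilobase scale mt-Co3 stood at 506.4 CPM, mt-Co2 at 282.5, mt-Atp6, a subunit of the proton channel of complex V, at 260.2, mt-Co1 at 99.6 and mt-Cytb, the mitochondrial subunit of complex III, at 56.9. L4 weighed heavily in these means: without it mt-Nd3 stood at 185.3, mt-Co2 at 182.8, mt-Atp6 at 162.1 and mt-Co1 at 58.9 CPM per kilobase. mt-Nd6 lies on the other strand of the mitochondrial genome (MT:13552-14070, minus strand), and reads from the RNA opposite to it could not be told apart from its own unless the counting used strand, which is not given in the sources used here.

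Among the mitochondrial mRNAs, mt-Nd4l and mt-Nd4 share 1 molecule and mt-Atp8 and mt-Atp6 another, with overlapping reading frames, and in both pairs the shorter frame was almost without counts. mt-Nd4l (297 bases) had 0 counts in all 12 libraries, whereas mt-Nd4, on the same mRNA, ran from 0.42 to 98.2 CPM. mt-Atp8 (204 bases) had 0 to 3 counts a library, whereas mt-Atp6, which follows it on the same mRNA, ran from 0 to 911.9 CPM. Gm10222, the copy of mt-Nd4l, received 56 counts over the 12 libraries. Both short genes fell below the filter on low counts, which left 11 mitochondrial members for the test.

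None of the 11 tested mitochondrial members was called different between large and small clones. The test was edgeR's quasi-likelihood test across the 10848 genes that passed the filter, with Benjamini-Hochberg adjustment; it called 0 genes in the whole table (0%) at an adjusted p under 0.05, and the adjusted p of each member was 0.9998. Before adjustment, 275 genes had a p under 0.05 (2.54%), none of them mitochondrial. The other tool run, DESeq2, called 35 genes in the table, 0 of the members. The log2 fold changes (large over small) were above 0 for 7 mitochondrial members and below 0 for 4, with a median of 0.63 against 0.06 over all genes tested. mt-Co1 had the lowest p, at a log2 fold change of 1.62 (SE 1.13, edgeR unadjusted p 0.172, higher in large clones in 3 of 6 mice). The largest negative value was that of mt-Nd6, -0.96 (SE 1.14). Values for mt-Nd1 (0.78, SE 1.07), mt-Nd2 (0.71, SE 0.84), mt-Nd3 (0.92, SE 0.90) and mt-Co2 (0.79, SE 1.94) lay no farther from 0 than about 1 standard error. The remaining values were those of mt-Atp6 (0.63, SE 1.79), mt-Nd5 (0.10, SE 0.93), mt-Cytb (-0.05, SE 0.99), mt-Co3 (-0.55, SE 2.02) and mt-Nd4 (-0.82, SE 1.05). With the counts of the copies added to their parents, mt-Co3 moved to 0.15 and again 0 members were called.

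Summed, the mitochondrial members held a mean of 0.115% ± 0.131 of all counts (SD over the 6 large clone libraries) and 0.106% ± 0.104 (SD over the 6 small clone libraries). The large clone libraries held 0.0202% at the lowest, 0.0547% at the median and 0.347% at the highest, and the small clone libraries 0.00811%, 0.0986% and 0.217%. In 4 of 6 mice the large clones had the higher share, and the mean log2 difference of 0.42 was small beside the SD of the mouse differences, 2.38. Mouse 3 and mouse 5 lay at the ends, with log2 differences of 4.597 and -2.20. Without mouse 3 the mean difference turned to -0.42. Within the 7 libraries under the chemoreceptor limit the difference was 0.35, and within the 5 over it 1.64. With the copies added, the share ran from 0.0234% to 1.11% over the 12 libraries and the difference was 0.33.

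The nuclear members were far more abundant in the table. Their mean share of all counts was 1.53% ± 0.915 (SD, n = 6) over the large clone libraries and 1.87% ± 0.948 (SD, n = 6) over the small clone libraries. The large clone libraries ran from 0.335% through a median of 1.62% to 2.43%, and the small clone libraries from 0.560% through 2.20% to 2.92%; the 95% Wilson interval of a library's share was at most 0.0172 percentage points to either side. The share was lower in large clones in 5 of 6 mice, mouse 3 being the exception, but the mean log2 difference of -0.37 was within the SD of the mouse differences, 1.06. It shrank to -0.06 within the 7 libraries under the chemoreceptor limit and to -0.07 within the 5 over it. In mice 1 and 2 the lower library, L1 and L2, was over the limit and its small clone partner was not; in mouse 3 it was S3 that was over the limit, and there the difference had the opposite sign. The share therefore followed the split of libraries: 0.335% to 1.06% in the 5 and 2.11% to 2.92% in the 7, without overlap. In pooled cells, fewer cells of a type and less RNA per cell cannot be told apart.

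The ratio of nuclear to mitochondrial counts differed by a factor of 19.5 between libraries. It was 39.3 in L1, 15.1 in L2, 12.4 in L3, 6.25 in L4, 61.9 in L5 and 16.6 in L6. It was 121.7 in S1, 12.2 in S2, 104.5 in S3, 10.6 in S4, 16.2 in S5 and 47.3 in S6. The highest values came from S1 and S3, the lowest from L4 and S4, and the classes overlapped. The mean was 25.2 ± 21.2 (SD, n = 6) for large and 52.1 ± 49.4 (SD, n = 6) for small clones. In 2 of 6 mice the large clones had the higher ratio, and the mean log2 difference of -0.79 was within the SD of the mouse differences, 1.74. Within the 7 libraries under the chemoreceptor limit the difference was -0.42, and within the 5 over it -1.71. Unlike the nuclear share, the ratio did not separate the libraries by the chemoreceptor limit: it ran from 15.1 to 104.5 in the 5 and from 6.25 to 121.7 in the 7. With the copies included the ratio ran from 1.95 to 31.2, and in L5 it dropped from 61.9 to 7.63. Its log2 difference between the classes was then -0.70.

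**Figure D2:**
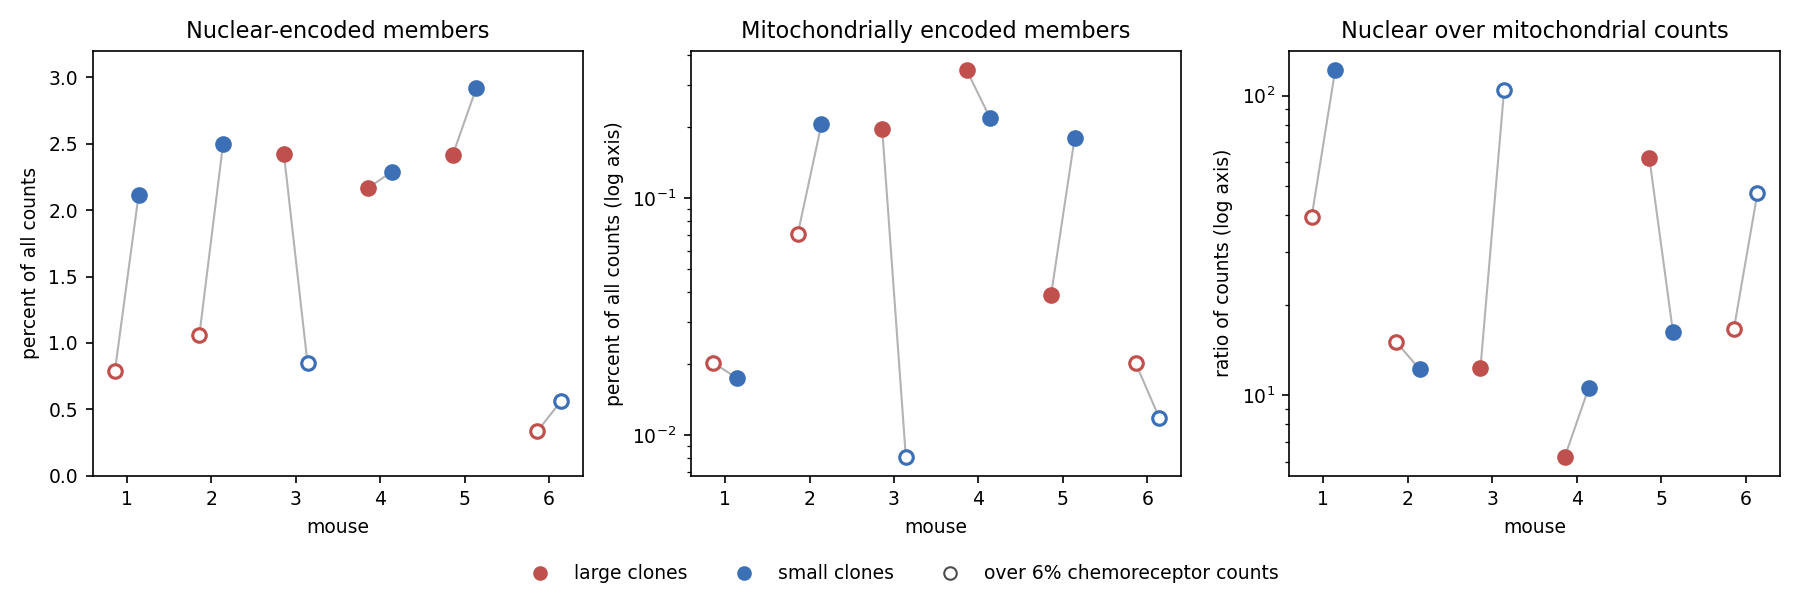
Share of all counts on nuclear members (left, linear axis from 0), share on mitochondrial members (middle, log axis) and their ratio (right, log axis) for each mouse; red points are large clones, blue points small clones, open points libraries with over 6% chemoreceptor counts, and grey lines join the libraries of 1 mouse. The 5 open points lie between 0.335% and 1.06% in the left panel, below all 7 filled points, while in the right panel open and filled points are mixed.

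A few genes made up much of the nuclear class. Ndufa2, an accessory subunit of complex I, held 10.9% to 29.3% of the class counts of a library, and Atp5e, the epsilon subunit of the catalytic F1 part of complex V, held 9.57% to 21.7%; together they made 21.8% to 44.9%. Per kilobase of transcript Atp5e reached 5965 CPM and Ndufa2 5089 CPM on average. Cox4i1, the widely expressed form of complex IV subunit 4, reached 2067, Uqcr11, a small subunit of complex III, 1585, Ndufb7, another accessory subunit of complex I, 1316, and Atp5d, the delta subunit of F1, 1042 CPM per kilobase. In the same unit mt-Co3, the highest of the mitochondrial members, stood at 506.4. These per-kilobase levels are means over libraries that differ widely, and the comparison of the 2 genomes carries the uncertainty of the copies. All per-kilobase levels here divide by the unweighted mean length of a gene's protein-coding transcripts in GENCODE. Whether counts scale with transcript length in these poly(A)-primed libraries was not tested, so the order of genes by this measure is uncertain.

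Of the 82 nuclear members, 69 passed the filter on low counts. Cox6a2 had 0 counts everywhere; the others that did not pass were Ndufa1, Ndufa8, Ndufb4, Ndufb11b, Ndufc2, Cox4i2, Cox5b-ps, Cox6b2, Cox7a1, Cox8b, Cox8c and Ndufa4l2. None of the 69 was called in large against small clones by edgeR's quasi-likelihood test, and all adjusted p values were 0.9998. The log2 fold change was above 0 for 25 members and below 0 for 44, with a median of -0.21 against 0.06 for all genes; the split moved with the libraries, the median being -0.10 within the 7 libraries under the chemoreceptor limit, where that of all genes was also -0.10. Ndufb6 and Uqcrc2, 2 of the 69, had an unadjusted p under 0.05, against 2.54% of all genes. Ndufb6 alone lay in the same direction in 6 of 6 mice, as did 2.21% of all genes, and in 0 members were the classes without overlap (0.0645% of all genes). These shares are near the background and are no result about the members.

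Ndufb6, an accessory subunit of the membrane arm of complex I (chr4:40270591-40279421), had the lowest p. Its lowest, median and highest levels were 8.70, 17.2 and 179.9 CPM in large clones and 1.36, 6.09 and 14.2 CPM in small clones. The highest value, in L4, stood well above the rest, and the classes overlapped. The log2 fold change was 2.91 (SE 0.96, edgeR unadjusted p 0.00859, higher in large clones in 6 of 6 mice), and without mouse 4 it was 1.51. Uqcrc2, a core subunit of complex III (chr7:120635176-120659524), had 0, 9.45 and 123.6 CPM in large clones and 0.42, 2.77 and 4.34 CPM in small clones. Its log2 fold change of 3.88 (SE 1.47, edgeR unadjusted p 0.0185, higher in large clones in 4 of 6 mice) came mainly from L2 and L4, while L3 and L5 were at 0; without mouse 2 it was 2.61.

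Of the most abundant complex I members, Ndufa2 ran from 428.8 through a median of 2456 to 6716 CPM in large clones and from 747.1 through 3422 to 4003 CPM in small clones. Ndufb7 ran from 56.7 through 713.5 to 1561 CPM and from 159.9 through 859.5 to 1689 CPM. Their log2 fold changes were -0.04 (SE 0.66) and -0.18 (SE 0.79). The lowest p among complex I members below 0 was that of Ndufa5, also an accessory subunit, at -1.84 (SE 1.06, edgeR unadjusted p 0.103), lower in large clones in 5 of 6 mice. Over complex I, 8 tested nuclear members lay above 0 and 23 below, with a median of -0.37.

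In complex III, Uqcr11 ran from 9.94 through 541.3 to 1796 CPM in large clones and from 148.4 through 752.3 to 1392 CPM in small clones, a log2 fold change of 0.02 (SE 0.91). Uqcrq, also a small subunit, ran from 39.0 through 527.7 to 1363 CPM and from 80.9 through 794.7 to 1271 CPM, a log2 fold change of -0.21 (SE 0.83). Uqcrb, another small subunit, had -0.81 (SE 1.00). The 8 members divided evenly, 4 above and 4 below 0, and the classes overlapped in each gene named.

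In complex V, the log2 fold change was -0.17 (SE 0.65) for Atp5e and -0.55 (SE 0.70) for Atp5d. Atp5e ran from 287.4 through 2586 to 4545 CPM in large clones and from 612.0 through 3150 to 3897 CPM in small clones. Atp5mpl, a small membrane protein of the complex, had the lowest p above 0 at a log2 fold change of 1.24 (SE 1.05), with L4 at 1170 CPM and every other library at or below 406.5. Atp5h, subunit d of the peripheral stalk, had the lowest p below 0 at -1.38 (SE 0.86). Of the 17 members, 6 lay above 0 and 11 below.

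In complex IV, Cox4i1 ran from 48.4 through 1126 to 3061 CPM in large clones and from 82.2 through 1252 to 2553 CPM in small clones, a log2 fold change of 0.14 (SE 0.96). Cox7a2l, which takes part in joining complexes III and IV into supercomplexes, had -0.63 (SE 1.04) and Cox7b -1.48 (SE 1.08). Of the 13 tested members of the complex, 7 lay above 0 and 6 below.

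Complex IV is the complex whose subunits come in tissue-restricted pairs, and per kilobase of transcript the widely expressed partner had the higher mean level in every pair except that of Cox7b2 and Cox7b, whose order turned without L2; in the other pairs the order was the same with any 1 library left out. Cox4i2, the form known from lung and low oxygen, had 0 counts in 9 of 12 libraries and at most 5.79 CPM. Cox6a2, Cox7a1 and Cox8b are the heart and skeletal muscle forms: Cox6a2 was at 0 everywhere, Cox7a1 reached 2.89 CPM, and Cox8b was at 0 in 9 libraries but at 92.4 CPM in L4. Per kilobase the partners Cox4i1, Cox6a1, Cox7a2 and Cox8a averaged 2067, 295.1, 178.4 and 156.1 CPM, against 0.765, 0, 0.879 and 24.7 CPM for Cox4i2, Cox6a2, Cox7a1 and Cox8b. Without L4 the mean of Cox6a1 was 127.1, below those of Cox7a2 (147.0) and Cox8a (130.2), and that of Cox8b 3.65; without S5, Cox4i2 averaged 0.113 and Cox7a1 0.360 CPM per kilobase. The testis forms Cox6b2 and Cox8c reached 42.5 and 3.18 CPM; Cox6b2 averaged 14.7 CPM per kilobase (7.70 without S4) and its partner Cox6b1 193.5. Ndufa4l2, induced by low oxygen, had counts in S1 alone, at 0.633 CPM, whereas Ndufa4 averaged 130.0 CPM per kilobase. The log2 fold changes of the partners were 1.204 (SE 1.36) for Cox6a1, 0.47 (SE 1.38) for Cox6b1, 0.22 (SE 0.94) for Cox7a2, -0.45 (SE 0.77) for Cox8a and -0.34 (SE 1.09) for Ndufa4, none of them called.

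Cox7b2 is the testis form of subunit 7b (chr5:71442824-71548205). Per kilobase it averaged 32.7 CPM over the 12 libraries, against 15.1 CPM for Cox7b. Its highest level, 141.5 CPM, came from L2, and without that library the means were 11.97 CPM for Cox7b2 and 16.3 CPM for Cox7b. The 5 libraries over the chemoreceptor limit had 13.9 to 141.5 CPM against 0 to 4.89 CPM in the other 7. Cox7b went the other way, 0.496 to 5.30 CPM in the 5 and 4.11 to 63.97 CPM in the 7. The log2 fold change of Cox7b2 between the clone classes was 2.45 (SE 1.55), and 0.22 without mouse 2.

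**Figure D3:**
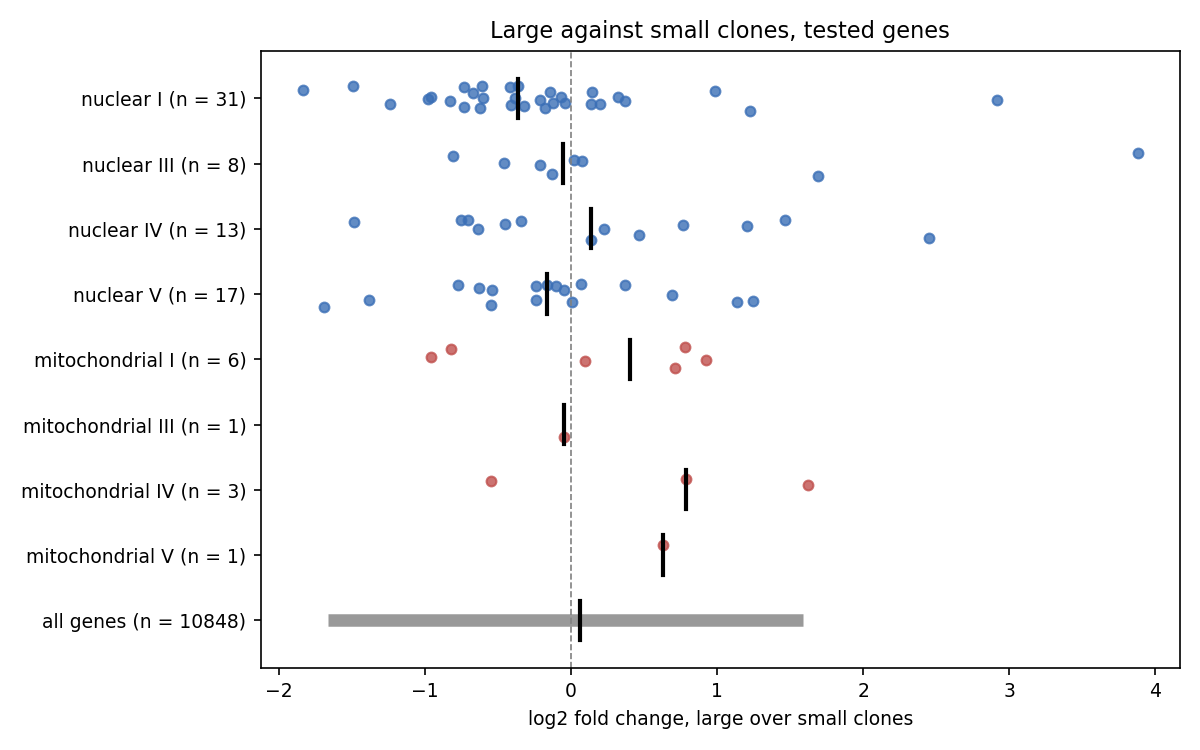
Log2 fold change of large over small clones for each tested member by genome and complex (blue nuclear, red mitochondrial; black bars are medians), and at the bottom the median and the 5th to 95th percentile of all 10848 genes tested (grey bar). Most members lie inside the grey range of -1.66 to 1.59; Uqcrc2 at 3.88 and Ndufb6 at 2.91 are the farthest out, and neither was called.

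The members also differed between the libraries over and under the chemoreceptor limit. Of the 69 tested nuclear members, 64 had a lower mean in the 5 libraries over the chemoreceptor limit, and in 30 all 5 libraries lay below all 7 others, against 9.98% of all genes tested. Over all 82 nuclear members, tested or not, the mean was lower for 73, and the same 30 showed no overlap. In 1 member, Cox7b2, all 5 lay above, against 8.62% of all genes. The median difference of mean log2(CPM + 1), the 5 libraries minus the 7, was -2.65 for the tested nuclear members and 0.19 for all genes. With total counts in place of TMM scaling it was -2.29 against 0.55, and 23 members stood wholly below. Related gene lists, compared further below, also shifted under TMM scaling. Of 15 tested glycolytic genes, 14 had a lower mean in the 5 libraries, 7 lay wholly below, and the median was -2.89. The median was -1.76 for the tricarboxylic acid cycle, -1.64 for complex II and cytochrome c, and -0.64 for assembly factors. For mitochondrial transcription and its regulators the median was 0.90. This pattern is a description of libraries chosen by another measure, without a test, and it moves with the low epithelial marker levels, low ribosomal protein shares and high pseudogene shares given above; the part of these in it was not tested.

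All 4 complexes took part. The nuclear complex I genes summed to 0.169% to 0.436% of counts in the 5 libraries and 0.759% to 1.14% in the 7. Complex III genes summed to 0.0125% to 0.123% against 0.232% to 0.356%. Complex IV genes summed to 0.0278% to 0.0775% against 0.212% to 0.472%, and complex V genes to 0.126% to 0.426% against 0.649% to 0.954%. In none of the complexes did the ranges overlap. Cox4i1 had 48.4 to 447.2 CPM in the 5 and 1036 to 3061 CPM in the 7. Ndufa13, the complex I member with the lowest difference, had 0 to 20.4 CPM against 143.9 to 664.0 CPM. Of the 11 tested mitochondrial members, mt-Atp6 alone was below in all 5, at 0 to 11.5 CPM against 39.9 to 911.9 CPM. That share is near the 9.98% of all genes tested and is no result about the members. In L1, L2, S3 and S6 mt-Atp6 had 0 counts, while its copy Gm10925 held 29, 33, 11 and 27. Gm10925 had 0 counts in every other library. All 11 tested mitochondrial members had a lower mean in the 5, with a median difference of -3.00.

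**Figure D4:**
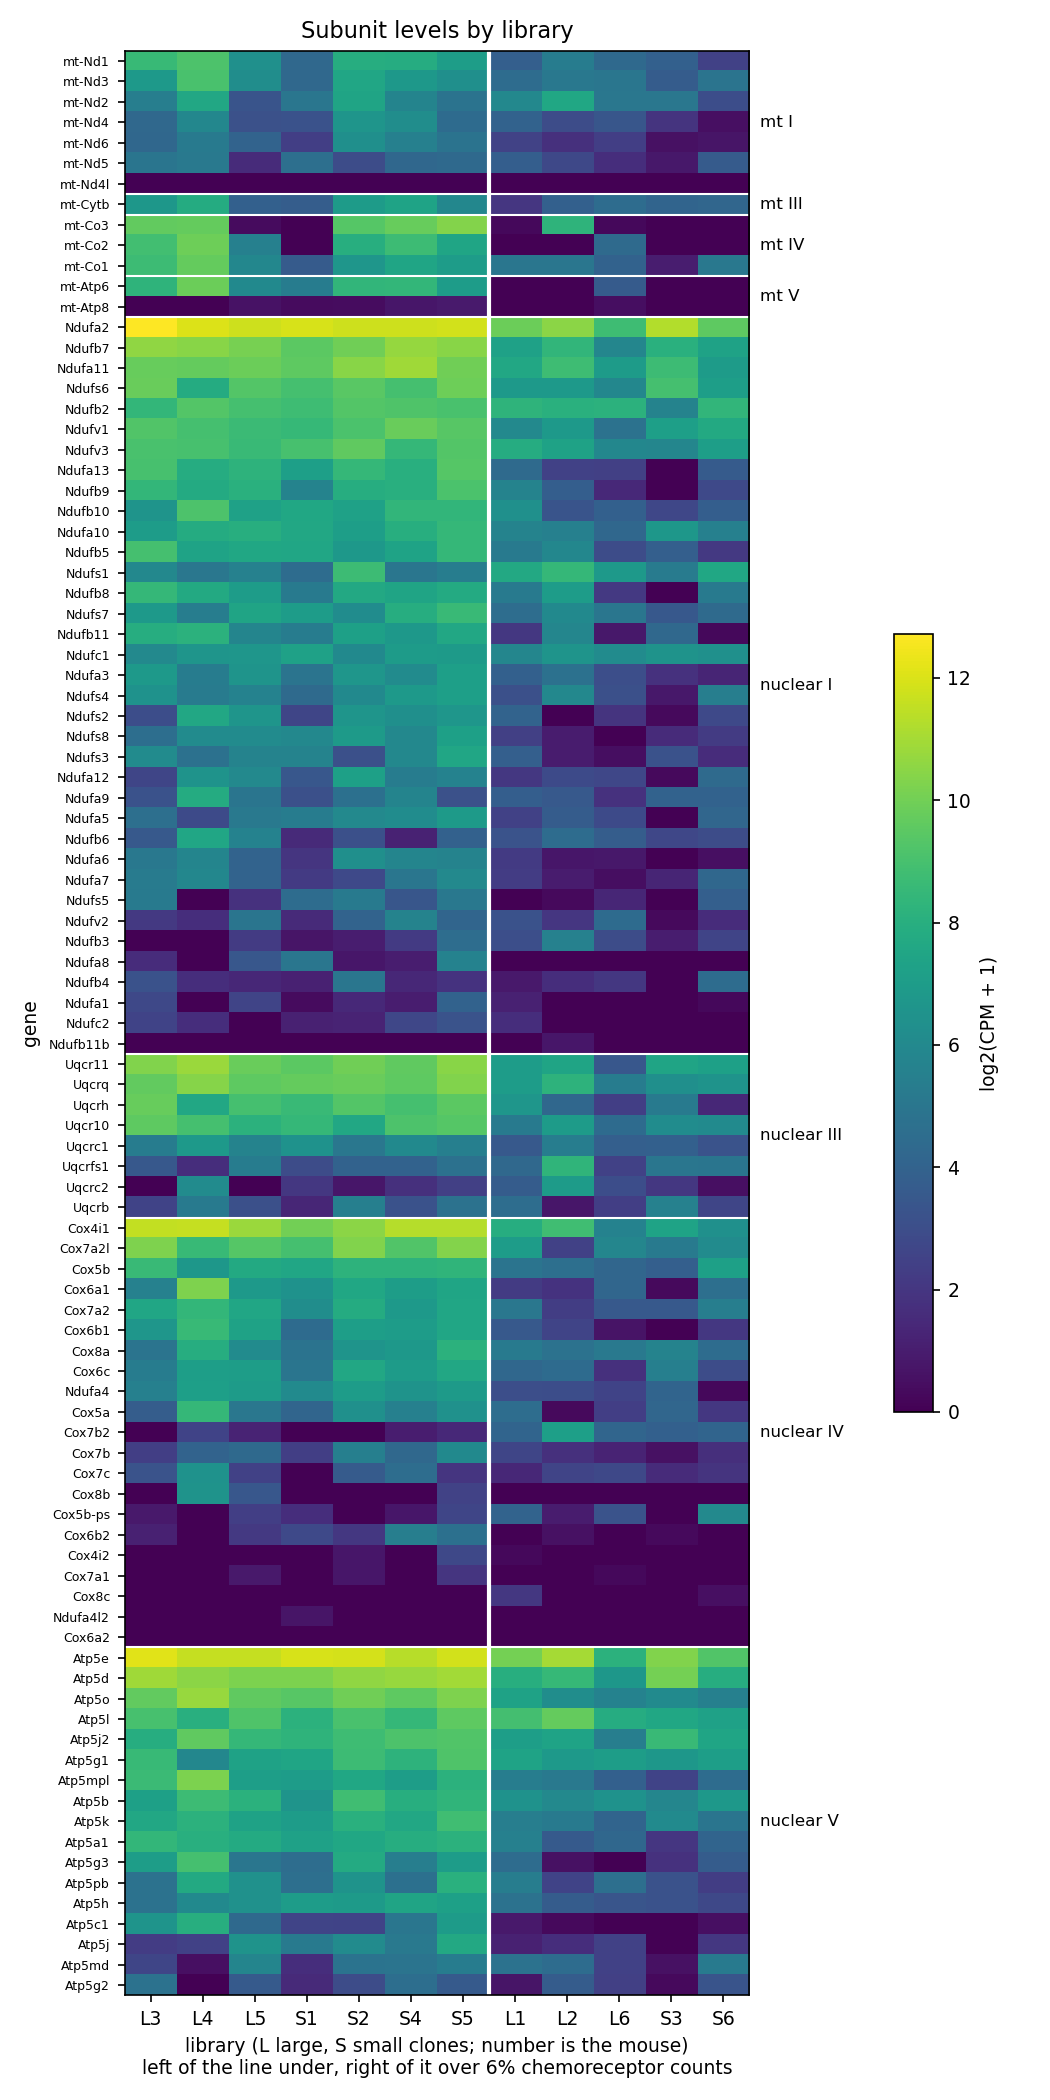
Levels of all 95 members, as log2(CPM + 1), in the 7 libraries under (left of the white line) and the 5 over 6% chemoreceptor counts (right), grouped by genome and complex and ordered by mean level. Most nuclear genes are darker on the right, and Cox7b2 and Ndufs1 are among the few that are not; mt-Co3 is near 0 in 6 libraries on both sides.

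A set of 8 nuclear members shares a feature of the transcript. Atp5l, Atp5md, Atp5g1, Atp5b, Ndufc1, Ndufv3, Ndufs1 and Cox6c each hold a stretch of 100 bases or more that is found at 90% identity or more in transcripts of at least 50 other genes (588 for Atp5l, 561 for Atp5md and 80 for Ndufs1), as transcripts with a dispersed repeat do; the criterion was chosen after the values were seen. Their median difference between the 5 and the 7 libraries was -0.70, from -2.89 to 1.45, against -2.88 for the other 61 tested nuclear members. Atp5l, subunit g of the membrane part of complex V, had 151.5 to 825.6 CPM in the 5 libraries and 259.4 to 745.9 CPM in the 7. Ndufs1, the iron-sulfur core subunit of complex I (chr1:63143596-63176833), had 37.7 to 356.5 CPM in the 5, with a median of 192.1, and 21.2 to 414.2 CPM in the 7, with a median of 40.2; L1, L2, L6, S6 and S2 were the high libraries. The 1607 other genes that share such stretches held 24.0% to 27.1% of all counts in the 5 libraries and 10.7% to 17.6% in the 7. Whether reads from the repeats entered the counts of these members was not tested. Without the 8 members the nuclear share ran from 0.249% to 0.877% in the 5 and from 1.98% to 2.69% in the 7. Ndufb3, Uqcrc2 and Uqcrfs1, which lack such a stretch, also had a higher mean in the 5, by 1.53, 1.37 and 1.26 on the log2 scale; the highest value of each of the 3 came from L2.

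**Figure D5:**
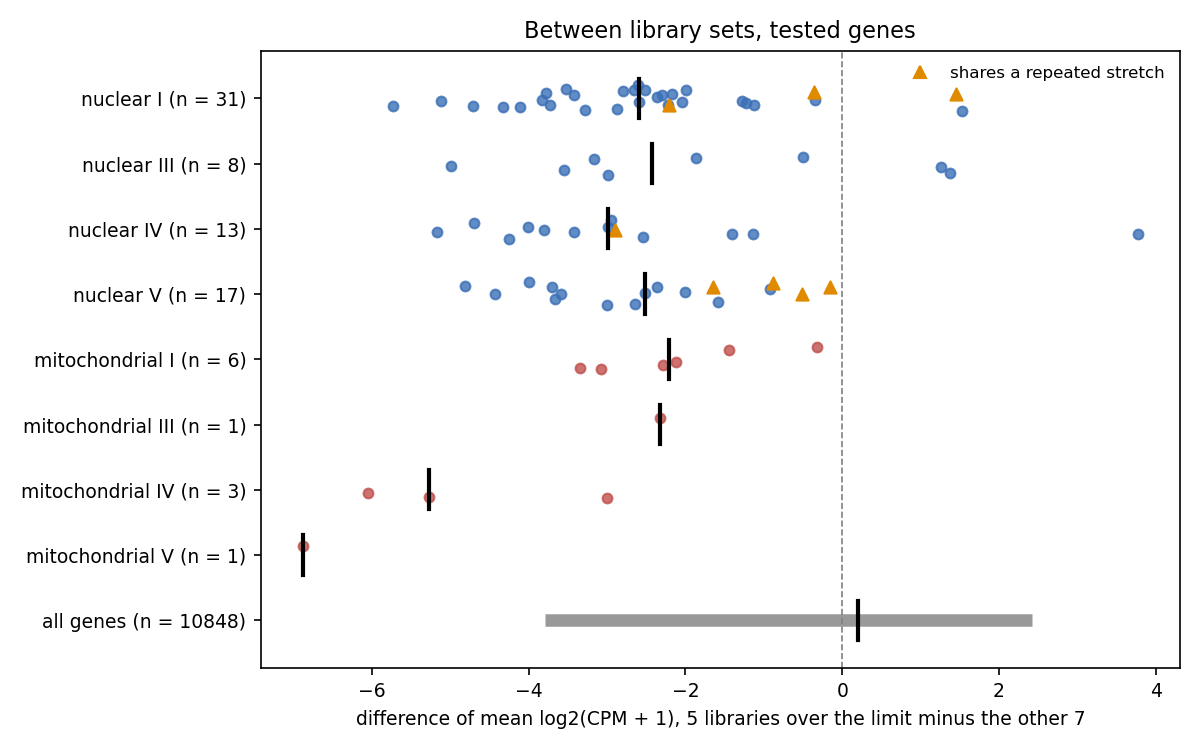
Difference of mean log2(CPM + 1) between the 5 libraries over and the 7 under the chemoreceptor limit for each tested member, by genome and complex; triangles are the 8 members that share a repeated stretch, black bars are medians and the grey bar is the 5th to 95th percentile of all 10848 genes. The nuclear medians lie between -2.98 and -2.42 while that of all genes is 0.19; 6 of the 8 triangles lie at -1.64 or above and Cox7b2 is at 3.77.

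The promoters of the nuclear members were also read for motifs of factors known to act on respiratory genes. Whether these factors had a part in the differences between libraries was not tested. RefSeq promoter windows of build GRCm38.p6, 250 bases before to 50 after the start, matched 59 of the 82 nuclear members by gene identifier, in 64 windows. The core CGCATGCG of the nuclear respiratory factor 1 motif was in 12.5% of these windows and in 1.87% of all 32851 windows, on either strand. The ETS family core CCGGAAG was in 17.2% against 8.86%, the YY1 core AAGATGGC in 14.1% against 2.75%, and the TATA box letters TATAAA in 10.9% against 13.6%. At least 1 of the first 3 motifs was in 35.9% of the members' windows and 12.6% of all windows, whose GC contents were 57.2% and 53.8%. None of the 4 motifs contains another. Among the tested nuclear members with a window, the median difference between the library sets was -2.26 for the 22 with 1 of the first 3 motifs and -2.63 for the 30 with none of them. With a motif, the differences ran from -4.99 (Uqcrh) to -0.35 (Ndufb6), and with none from -5.73 (Ndufa13) to 3.77 (Cox7b2). The 200 bases from 170 before to 30 after the start are shown, on the gene's strand with these motifs in capitals, for 3 members picked after their values were seen to show the motifs, and for Cox7b2, the member that lay wholly above in the 5 libraries: Uqcr11 (chr10:80406792-80406991), Atp5j, coupling factor 6 of complex V (chr16:84834947-84835146; its other window, chr16:84835596-84835795, holds none of the motifs in the same 200 bases), Cox6a1 (chr5:115348929-115349128) and Cox7b2 (chr5:71548176-71548375), all on the minus strand.
Uqcr11: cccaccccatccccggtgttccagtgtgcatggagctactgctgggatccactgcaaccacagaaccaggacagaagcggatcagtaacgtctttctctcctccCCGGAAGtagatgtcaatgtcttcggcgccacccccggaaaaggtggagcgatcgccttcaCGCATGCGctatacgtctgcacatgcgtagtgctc
Atp5j: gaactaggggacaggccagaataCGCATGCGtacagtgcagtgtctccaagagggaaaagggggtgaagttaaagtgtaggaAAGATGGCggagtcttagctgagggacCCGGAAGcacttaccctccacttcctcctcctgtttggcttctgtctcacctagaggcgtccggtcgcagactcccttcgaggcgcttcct
Cox6a1: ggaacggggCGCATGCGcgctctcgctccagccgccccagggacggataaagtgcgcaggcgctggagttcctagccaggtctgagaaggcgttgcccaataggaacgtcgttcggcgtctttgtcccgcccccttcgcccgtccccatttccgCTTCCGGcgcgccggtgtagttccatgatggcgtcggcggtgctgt
Cox7b2: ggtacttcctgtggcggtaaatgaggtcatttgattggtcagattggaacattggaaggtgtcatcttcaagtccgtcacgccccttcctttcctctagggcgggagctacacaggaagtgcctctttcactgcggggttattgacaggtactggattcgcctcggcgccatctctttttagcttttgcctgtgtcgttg

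Uqcr11 had 9.94 to 173.5 CPM in the 5 libraries and 735.1 to 1796 CPM in the 7, Atp5j 0 to 4.48 against 3.71 to 204.6 CPM, and Cox6a1 0.248 to 23.7 against 47.8 to 1224 CPM. The 200 bases shown for Cox7b2 hold none of the 4 motifs, which says only that these exact letters are not in them. Shorter or variant forms of the motifs were not searched. The full window of Cox7b2 holds the TATA box letters farther upstream. A match is a match of letters only, and no binding was measured.

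The genes that work with the subunits were also compared between the clone classes. Of complex II, cytochrome c and the other chain components, 4 of 7 genes were tested, 1 above and 3 below 0; Sdha, the flavoprotein of succinate dehydrogenase, had a log2 fold change of 1.35 (SE 1.11) and Ndufab1, the mitochondrial acyl carrier protein, -0.28 (SE 0.71). Of 35 assembly factors 21 were tested, 11 above and 10 below; Cox10, which makes heme A for complex IV, had 2.82 (SE 1.16, edgeR unadjusted p 0.0287, higher in large clones in 6 of 6 mice), and Cox14 -1.68 (SE 1.37). Of 17 genes of mitochondrial transcription and its regulators 10 were tested, 4 above and 6 below; Nrf1, nuclear respiratory factor 1, had -1.68 (SE 0.71, edgeR unadjusted p 0.0315, lower in large clones in 5 of 6 mice) and Mterf3 0.26 (SE 0.52). Of 16 genes of the tricarboxylic acid cycle 13 were tested, 6 above and 7 below, from Idh3g at -1.92 (SE 1.00) to Suclg2 at 1.64 (SE 0.84). Of 16 glycolytic genes 15 were tested, 5 above and 10 below, with Eno1 at -1.59 (SE 0.79) and Pgam1 at 0.76 (SE 0.79). None had an adjusted p under 0.05 in edgeR, the lowest being 0.9998.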

How the data were processed

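RNA from 12 pools of 200 microdissected cells was measured as gene expression, per the labels' protocols. As deposited by the authors, the table gives genes as rows with expected counts as values; the submitters' processing notes name RSEM, Bowtie2 and GRCm38, with versions and strand setting not given in the sources used here. Expected counts were rounded; 1 row, with 0.133% of the counts, has an identifier without a symbol and was kept. The start positions in the table matched GRCm38 for only 3.01% of genes, so coordinates are those of GENCODE M21 (GRCm38) by gene identifier.

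Counts were filtered with filterByExpr, TMM-scaled and fitted with edgeR 4.0.16 (R 4.3.3) by clone class, without a block, with quasi-likelihood tests and Benjamini-Hochberg adjustment over the 10848 genes tested; a gene was called at an adjusted p under 0.05. The script was tested on simulated data as a check of the code. The pass condition did not use the spread of these data, so it does not show what was detectable here. Alternatives were DESeq2 1.42.0, other scaling, no filter, unrounded counts, a mouse block, a chemoreceptor covariate, members added or left out and each mouse left out. Both libraries of a mouse come from 1 animal, so the numbers pair them; the correlations of their deviations were -0.02, -0.01, -0.38, 0.28, 0.52 and 0.64 for mice 1 to 6. The p-values of the main fit measure the spread between the libraries of a clone class, each from another mouse. They do not use the pairing.

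Copies and repeated stretches were found by BLAST 2.17.0 of GENCODE transcripts. The members and gene lists were chosen with earlier results of these data known, and the copy and repeat criteria after the values were seen. Named were every mitochondrial gene, the 2 most abundant nuclear members and the lowest p in each direction of each complex, every member with p under 0.05, and the tissue-restricted isoforms with their partners. Other members named (Atp5l, Atp5j, Ndufa13, Ndufb3, Ndufs1, Uqcrfs1 and the rest with a repeated stretch) were chosen after their values were seen. From the related lists, the lowest p in each direction was named.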

Additional observations from a re-analysis of the deposited data

Results flagged for a closer look

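The named members and the summed shares and ratios were searched in each clone class, 87 groups of 6 libraries in all. Of these, 9 held a library far from the others. A rate of 1 in 20 would give about 4.35, but that figure does not allow for groups mostly at 0. In such a group a single library with counts stands apart by construction, so the 2 numbers cannot be compared. Each value is a log2(CPM + 1) level, and the gap to the nearest library had to exceed 0.625 of the group's range. In the small clones of mouse 6, Ndufa2 stood at 9.55 with the nearest library at 11.2, and Atp5d at 7.91 with the nearest at 10.03; this library is 1 of the 5 over the chemoreceptor limit. The other 7 values belong to isoforms at 0 or near it in the other libraries of the same clone class. Cox4i2 stood at 0.28 in the large clones of mouse 1 and at 2.76 in the small clones of mouse 5. Cox7a1 stood at 0.88 in the large clones of mouse 5. Cox8b stood at 2.49 in the small clones of mouse 5. Cox8c stood at 2.06 in the large clones of mouse 1 and at 0.51 in the small clones of mouse 6. Ndufa4l2 stood at 0.71 in the small clones of mouse 1.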

How the results depend on the processing

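No member was called under any alternative run. DESeq2 called 35 genes in the whole table, 0 of them members, where edgeR called 0 in its main form and under its other settings. With the mouse as a replicate block, 0 genes were called, the number of nuclear members with an unadjusted p under 0.05 went from 2 to 0, and the log2 fold changes of Ndufb6 and Uqcrc2 were 2.03 and 2.30; the block changed no call. The median log2 fold change of the nuclear members, -0.21, became 0.11 when the chemoreceptor share was a covariate, and that of the mitochondrial members, 0.63, became -0.28 without mouse 4. The log2 difference of the nuclear share ran from -0.75 to -0.16 when 1 mouse was left out, that of the mitochondrial share from -0.42 to 0.94, and that of the ratio from -1.33 to -0.33. Counting the denominator over other protein-coding genes gave -0.31 for the nuclear and 0.48 for the mitochondrial share.

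Of 32 named members tested, 13 kept the sign of their log2 fold change under every alternative that gave a value; Cox7b2, 1 of the 13, gave none without mouse 6 or within the 7 libraries, mitochondrial members gave none with chromosome MT left out, and mt-Co3 gave none without mouse 2 or mouse 4. Over the 32, 51 of 465 alternative values had the other sign, all of genes that were not called; the cause was not tested. With the mouse as a replicate block, mt-Nd4 was at 0.36, mt-Nd5 at -0.45, mt-Nd6 at 0.27, mt-Co3 at 0.0042, Uqcr11 at -1.05, Cox4i1 at -0.38, Cox6a1 at -0.54, Cox6b1 at -0.34 and Cox7a2 at -0.45. With the chemoreceptor share as a covariate, mt-Nd4 was at 0.21, mt-Nd6 at 0.11, mt-Cytb at 0.15, mt-Co3 at 3.10, Ndufb7 at 0.072, Uqcr11 at -0.0050, Uqcrq at 0.25, Atp5e at 0.11, Cox8a at 0.082 and Ndufa4 at 0.23. Within the 7 libraries under the chemoreceptor limit, mt-Cytb was at 0.31, Ndufa2 at 0.31, Ndufb7 at 0.14 and Ndufa4 at 0.0069. With DESeq2 size factors in edgeR, mt-Cytb was at 0.030. With DESeq2, mt-Cytb was at 0.032. Without the filter on low counts, Uqcr11 was at -0.042. Without rounding, Uqcr11 was at -0.055. With the copies added, mt-Co3 was at 0.15. Leaving out 1 mouse at a time changed the sign of further values, which ran from -0.26 to 1.60 for mt-Nd3, from -1.20 to 0.0074 for mt-Nd4, from -0.51 to 0.46 for mt-Nd5, from -0.60 to 0.39 for mt-Cytb, from -1.31 to 0.32 for mt-Co3, from -0.44 to 1.29 for mt-Atp6, from -0.55 to 0.17 for Ndufa2 and from -0.51 to 0.25 for Uqcr11. The others ran from -0.68 to 0.0082 for Uqcrq, from -0.45 to 0.35 for Cox4i1, from -0.60 to 0.066 for Atp5e, from -0.029 to 1.80 for Atp5mpl, from -1.38 to 1.65 for Cox6a1, from -0.32 to 0.87 for Cox6b1, from -0.39 to 0.73 for Cox7a2, from -1.33 to 0.25 for Cox8a and from -0.83 to 0.069 for Ndufa4.

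The expected counts are estimates without a stated error, and a count near 0 for a mitochondrial gene with a copy depends on how RSEM divided reads. With 6 mice and a median standard error of 1.00 (log2) over the tested nuclear members, a difference of 1 to 2 standard errors was not detectable. Larger differences also went uncalled, such as Ndufb6 at 2.91 (SE 0.96) and Uqcrc2 at 3.88 (SE 1.47). The lowest edgeR unadjusted p of all genes tested, 0.000505, also had an adjusted p of 0.9998. The smallest detectable difference was not determined.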
